A study of Mus musculus with 12 samples.

Results

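Chemokines are small secreted or membrane-bound proteins that draw leukocytes along a gradient, and they act through receptors coupled to G proteins on the responding cell. In skin, keratinocytes, Langerhans cells, fibroblasts and vessels make chemokines, while T cells, monocytes, dendritic cells and neutrophils carry the receptors that guide them into and through the tissue. Atypical receptors bind chemokines without the usual G protein signal and remove or relocate them.

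The genes described here are the 41 chemokines and chemokine receptors among the 14533 genes of the count table. They were chosen by symbol: a name beginning with Ccl, Cxcl, Ccr, Cxcr, Ackr, Cx3cl, Cx3cr, Xcl or Xcr and a number, or the names Ccrl2 and Pf4. The rule itself uses no measured value, although it was proposed with results of these data known. By role, 22 were ligands, 14 were signalling receptors and 5 were atypical receptors. The symbol rule matched 64 protein-coding genes in the RefSeq gene table, so 23 of them were not analysed here, among them Ccl3, Ccl4, Ccl5, Cxcl1, Cxcl2, Ccl21a, Ccr3, Ccr10 and Cxcr5.

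RNA was sequenced from scraped frozen dorsal epidermis of untreated C57BL/6 mice, with 1 library per mouse and non-lesional skin. The 6 WT mice were Pparg (flox/flox) without Cre (Cytokeratin14 promoter-driven Cre-/-), so the controls also carried the floxed alleles. The 6 Pparg-/-epi mice had the Cre, which removes Pparg from cells that use the keratin 14 promoter, mainly basal keratinocytes. The study calls the WT mice sibling controls, but only 1 breeding number in the mouse names holds mice of both genotypes, 1 of each. The mice were 8 to 13 weeks old by the labels, which differ for some mice from the ages given with the study, with 3 female and 3 male WT mice and 4 female and 2 male Pparg-/-epi mice. Scraping went on until the vessels under the epidermis showed, so superficial dermis was included.

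Pparg itself had 59, 269, 5, 15, 58 and 13 counts in WT replicates 1 to 6 and 100, 107, 89, 16, 32 and 25 counts in Pparg-/-epi replicates 7 to 12. Its counts are summed over the whole gene, not over the deleted exons, and they did not tell the genotypes apart. They are therefore no check of the labels. Total counts ran from 10120840 to 18851255, and the genotypes' means did not differ beyond the spread (p = 0.965, exact two-sided permutation test). A single count was worth 0.0520 to 0.107 CPM (counts relative to library size, after TMM scaling). The 8 keratinocyte markers summed to 22750 to 50188 CPM in WT and 33883 to 56799 CPM in Pparg-/-epi libraries, and the 9 fibroblast markers were present as well, at 1064 to 34859 and 5569 to 11664 CPM. WT replicate 2 stood apart from the remaining WT libraries in several values. It had the lowest keratinocyte sum and a macrophage and monocyte sum of 861 CPM against a WT median of 197 CPM. Its sample weight (0.321) was the lowest of the 12 libraries when libraries were weighted by their spread. Other WT libraries stood apart in other lists. WT replicate 1 had the highest fibroblast sum, 34859 CPM against a WT median of 7867 CPM. WT replicate 5 had the highest sum of 7 skeletal muscle markers, 9820 CPM. The WT median of that sum was 46.6 CPM and the highest Pparg-/-epi sum was 397 CPM. The breeding numbers were uneven, since 4 of the 6 WT mice shared 1 number without any Pparg-/-epi mouse, so this number and the genotype cannot be told apart in those mice.

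Chemokine genes were more often higher than lower in Pparg-/-epi skin. Values are log2FC, the log2 ratio of Pparg-/-epi to WT, ± its standard error. Calls needed a log2FC of 0.6 or more in either direction and an adjusted p below 0.05 by edgeR's quasi-likelihood test, adjusted over all genes. Of the 41 genes, 16 were higher (39.0%, where 5.19% of all genes were called higher) and 3 were lower (7.32%, where 5.08% of all genes were called lower), and 22 were not altered. The higher genes were 10 ligands (Ccl1, Ccl2, Ccl7, Ccl17, Ccl19, Ccl20, Ccl22, Cxcl9, Cxcl10 and Cxcl16) and 6 receptors (Ccr1, Ccr6, Ccr7, Cxcr2, Cxcr4 and Cxcr6). The lower genes were 1 of each role: the ligand Cxcl14, the receptor Ccr4 and the atypical receptor Ackr4.

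The median log2FC was 0.81 over the 41 genes and -0.01 over all genes, and 32 of the 41 lay above 0, against 48.5% of all genes. By role the median was 1.17 for ligands, 1.10 for receptors and -0.30 for atypical receptors, of which 0 of 5 were called higher. In 7 of the 41 genes every Pparg-/-epi library lay above every WT library, where 3.95% of all genes did so. These were Ccl1, Ccl2, Cxcl10, Cxcl16, Ccr7, Cxcr2 and Cxcr6. In 0 of the 41 every Pparg-/-epi library lay below every WT library, again against 3.95% of all genes. In bulk tissue, more cells of a type and more RNA per cell cannot be told apart.

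**Figure D1:**
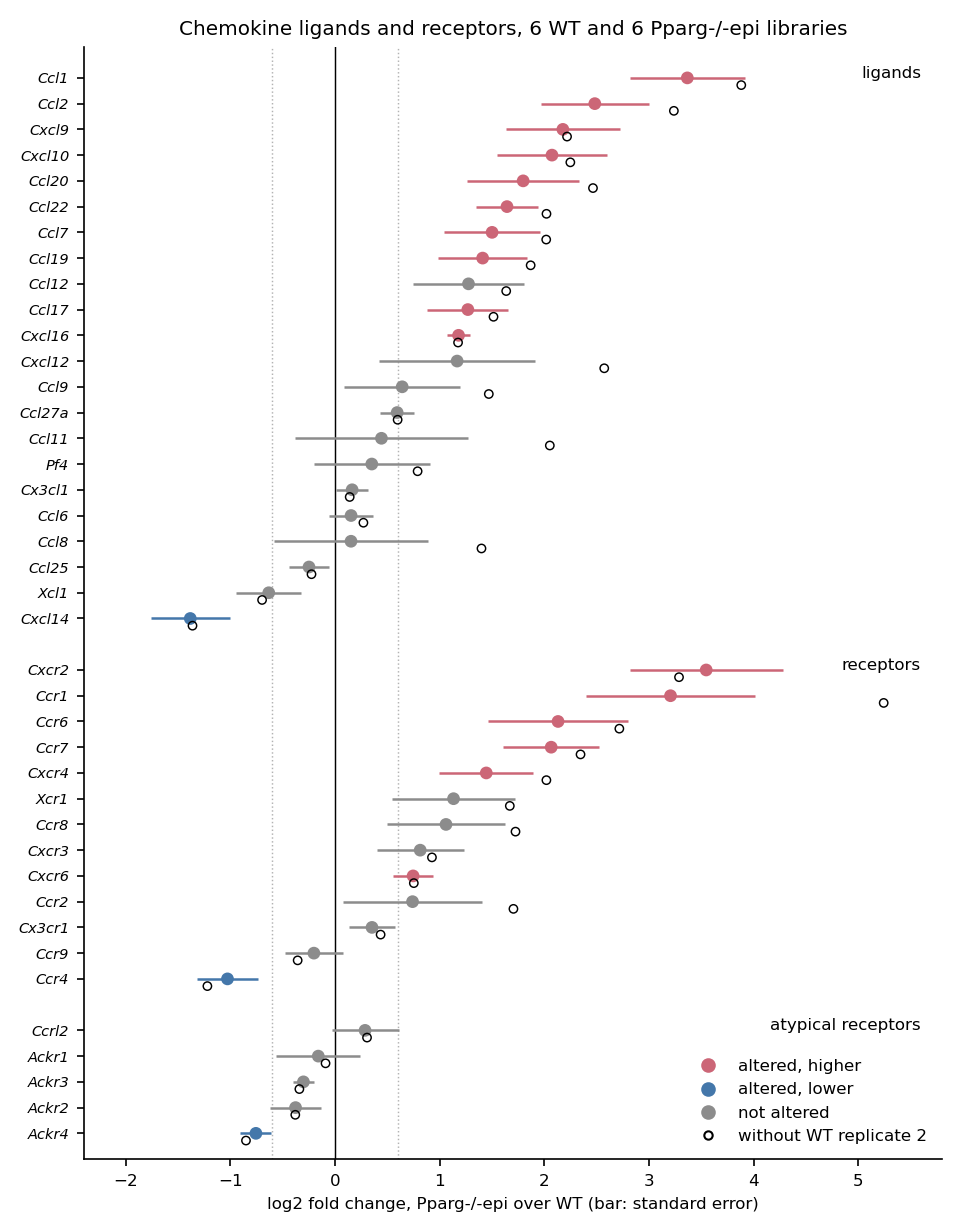
Log2FC of 40 of the 41 genes, Pparg-/-epi over WT (x axis; filled points with standard error bars, 6 libraries a group), by role and coloured by call, with open points for the value without WT replicate 2. Most ligands and receptors lie right of 0, Cxcl14, Ccr4 and Ackr4 lie left of it, and the open points of Ccl8, Ccl11, Cxcl12, Ccr1 and Ccr2 lie well to the right of their filled points.

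The count of higher genes depended on WT replicate 2. Without it 24 of the 41 genes were higher (8.97% of all genes) and 3 were lower (6.51% of all genes), and all 19 genes called with every library stayed called. Among the 8 gained were Ccl9, Ccl11, Ccl12, Cxcl12, Ccr2, Ccr8 and Xcr1. WT replicate 2 was the highest WT library in 22 of the 41 genes, where it was the highest in 27.0% of all genes, and the highest of all 12 libraries in 6. Of the 9 higher genes whose groups overlapped, 7 overlapped only through WT replicate 2, and without it 17 of the 41 genes had every Pparg-/-epi library above every WT library, against 6.82% of all genes. Among Pparg-/-epi libraries, replicate 8 was the highest in 16 genes and replicate 9 in 9. For these counts, and for the 6 genes highest in WT replicate 2 among all 12 libraries, no share over all genes is given. They are therefore not read as particular to these genes.

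**Figure D2:**
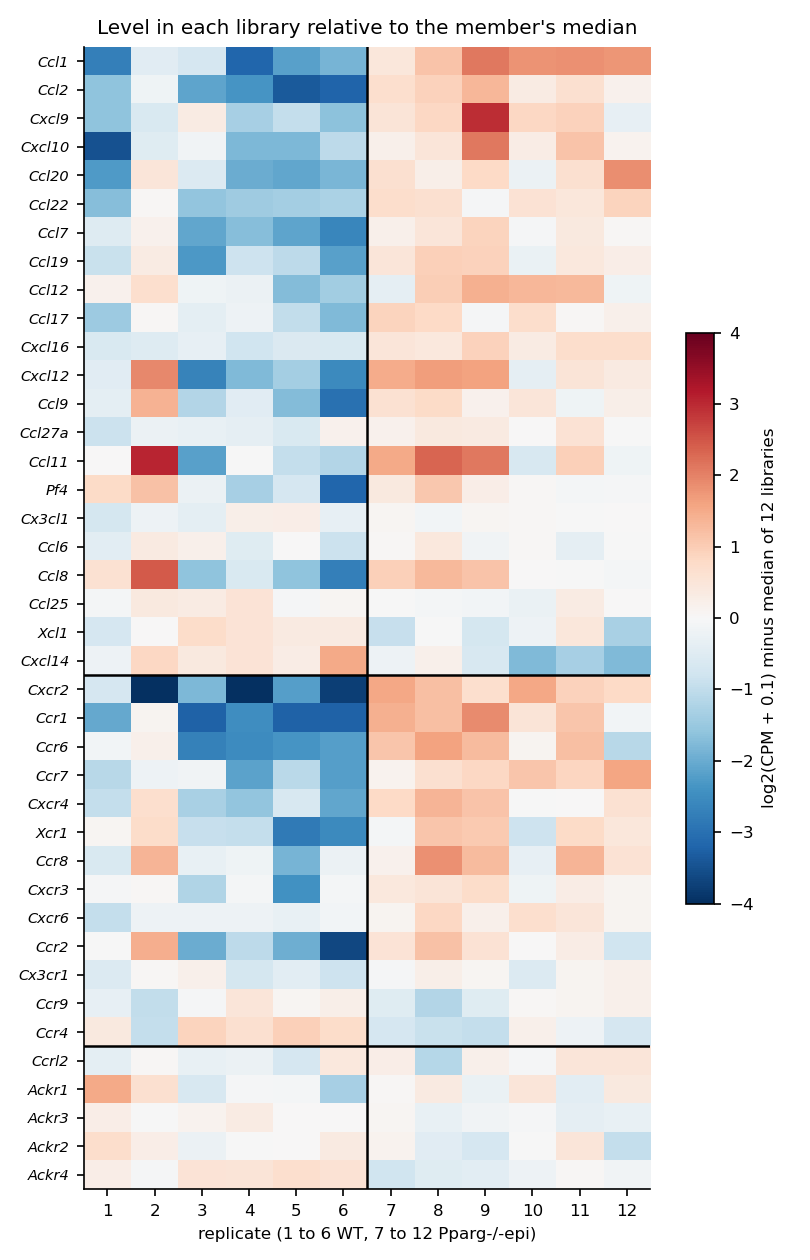
Level of 40 of the 41 genes (rows, by role, in the order of fold change) in each of the 12 libraries (columns, WT left of the line), as log2(CPM + 0.1) minus the gene's median over the libraries. WT replicate 2 is the reddest WT library in many rows, among them Ccl11, Ccl8, Cxcl12 and Ccr2, but is dark blue for Cxcr2.

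The promoters of Ccl1, Cxcl9 and Ccr6 are shown because they are the 3 altered genes with the largest fold changes whose promoters held GGNNNTTCC, a relaxed form of the kappaB element that NF-kappaB binds at many chemokine genes. RefSeq promoters of 300 bases, 250 before and 50 after the start (GRCm38.p6, the same coordinates as mm10), were found for 35 of the 41 genes, with 41 promoters in all. Ccl2, Ccl7, Ccl11, Ccr7 and Cxcl16 were among those not matched. Each sequence runs 5′ to 3′ on the gene's strand, and capitals mark the matches on either strand. The start of transcription follows base 250.
Ccl1, chr11:82179763-82180062, minus strand: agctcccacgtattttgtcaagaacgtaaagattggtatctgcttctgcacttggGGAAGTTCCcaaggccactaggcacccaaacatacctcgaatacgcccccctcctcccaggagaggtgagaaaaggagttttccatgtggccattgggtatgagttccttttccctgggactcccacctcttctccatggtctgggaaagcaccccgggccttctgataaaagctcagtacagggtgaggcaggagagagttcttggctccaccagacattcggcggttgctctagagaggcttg
Cxcl9, chr5:92328030-92328329, minus strand: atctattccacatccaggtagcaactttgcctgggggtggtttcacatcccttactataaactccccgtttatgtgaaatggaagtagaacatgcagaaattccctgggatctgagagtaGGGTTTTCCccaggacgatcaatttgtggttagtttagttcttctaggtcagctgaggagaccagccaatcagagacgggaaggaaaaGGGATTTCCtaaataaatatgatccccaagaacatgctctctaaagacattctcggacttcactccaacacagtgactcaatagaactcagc
Ccr6, chr17:8242276-8242575, plus strand: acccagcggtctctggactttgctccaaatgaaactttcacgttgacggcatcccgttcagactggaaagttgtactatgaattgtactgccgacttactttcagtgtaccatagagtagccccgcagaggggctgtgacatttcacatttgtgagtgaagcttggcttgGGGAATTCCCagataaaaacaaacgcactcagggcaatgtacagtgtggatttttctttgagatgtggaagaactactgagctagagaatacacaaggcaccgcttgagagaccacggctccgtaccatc
The match in Ccl1 begins 195 bases before the start, those in Cxcl9 130 and 42 bases before it, and those in Ccr6, which overlap each other, 80 and 79 bases before it. Ccr6 has another listed promoter, which held no such match. GGNNNTTCC was in 13 of the 41 promoters (31.7%) and in 18.5% of all 32851 promoters of the same length. By gene, 13 of the 35 held it. Among the 12 higher genes with a promoter, 6 held it: Ccl1, Ccl19, Ccl20, Ccr6, Cxcl9 and Cxcl10. The remaining genes with it were Ackr4, which was called lower, and Ackr1, Ccl9, Ccl12, Ccl25, Ccrl2 and Cx3cl1, which were not called. These are counts of genes and not of promoters, and no share over all genes is given for them. The other motifs searched, on both strands, were TTCNNNGAA for the STAT element GAS, in 7.32% of the genes' promoters and 8.30% of all, AAANNGAAA for the interferon element ISRE (9.76% and 10.6%), TGANTCA for AP-1 (12.2% and 7.81%) and AGGTCANAG for a PPAR element of the DR1 type (4.88% and 2.01%). The last was in Ccl22 and Ccl27a, and Cxcl10 held matches to GGNNNTTCC, AAANNGAAA and TGANTCA. A match is a description of the letters and not of a bound site.

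Of the ligands, 6 of the CC class, several of them monocyte attractants, lie side by side on chromosome 11 of mm10, from 82035577 to 82179812, in the order Ccl2, Ccl7, Ccl11, Ccl12, Ccl8 and Ccl1. Of these 6 genes within 144.2 kb, 3 were higher with all libraries and 5 were higher without WT replicate 2. Over the 41 genes, 16 and 24 were higher in the same fits, and over all genes 5.19% and 8.97%, so the cluster is not read as distinct from the other chemokine genes. Ccl1, the ligand of Ccr8, had 2, 19, 8, 1, 3 and 5 counts in WT replicates 1 to 6 and 38, 54, 107, 62, 58 and 59 counts in Pparg-/-epi replicates 7 to 12. It was higher by a log2FC of 3.37 ± 0.55 (adjusted p = 0.00178). The WT counts were low and every Pparg-/-epi library was above them.

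Ccl2, the main attractant of Ccr2-bearing monocytes, had 24, 82, 10, 13, 5 and 7 counts in WT and 153, 157, 206, 75, 85 and 65 counts in Pparg-/-epi libraries. Its log2FC was 2.48 ± 0.52 (adjusted p = 0.00699). Every Pparg-/-epi library was above every WT library, and WT replicate 2, at 4.35 CPM, came nearest to the lowest Pparg-/-epi library, at 5.58 CPM. Ccl7, which acts on the same receptor and on Ccr1, was at 0.629, 1.12 and 4.99 CPM (lowest, median, highest) in WT and 4.24, 5.42 and 8.24 CPM in Pparg-/-epi libraries (log2FC 1.5 ± 0.46, adjusted p = 0.0437). Again the highest WT library was replicate 2, the only one inside the Pparg-/-epi range, and leaving it out gave a log2FC of 2.02 (adjusted p = 0.00302).

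Ccl11 (eotaxin, which recruits eosinophils) and Ccl8 (in the mouse a ligand of Ccr8) were both far higher in WT replicate 2 than in the other WT libraries. Ccl11 had 81, 819, 10, 76, 33 and 35 counts in WT and 285, 436, 372, 39, 111 and 53 counts in Pparg-/-epi libraries, a log2FC of 0.44 ± 0.82 with all libraries (adjusted p = 0.771). Without WT replicate 2 it was called higher, at 2.05 ± 0.57 (adjusted p = 0.0231). Ccl8 was at 1.57, 5.37 and 61.0 CPM in WT and 10.5, 16.1 and 26.9 CPM in Pparg-/-epi libraries, a log2FC of 0.15 (adjusted p = 0.919), and of 1.40 without WT replicate 2 (adjusted p = 0.0731). It was the gene of the cluster that was called in neither set of libraries. Ccl12, a mouse monocyte chemokine that acts on Ccr2, lay between 1 and 16 counts in WT and between 5 and 25 in Pparg-/-epi libraries (log2FC 1.28 ± 0.53, adjusted p = 0.128). It was called higher without WT replicate 2 (log2FC 1.64, adjusted p = 0.0484), on counts of 1 to 9 in the remaining WT libraries.

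Ccl9 and Ccl6, myeloid ligands of Ccr1, lie next to each other farther along chromosome 11 (83572917 to 83593087). Ccl9 was at 1.32, 6.48 and 29.4 CPM in WT and 9.86, 14.3 and 19.0 CPM in Pparg-/-epi libraries (log2FC 0.64 ± 0.55, adjusted p = 0.486). Without WT replicate 2 every Pparg-/-epi library was above the WT libraries and it was called higher (log2FC 1.47, adjusted p = 0.0174). Ccl6 was at 8.18, 13.0 and 19.2 CPM in WT and 11.5, 14.9 and 19.8 CPM in Pparg-/-epi libraries, with a log2FC of 0.15 ± 0.21 (adjusted p = 0.677), and its groups overlapped over most of their range. The 13 macrophage and monocyte markers summed to 107, 197 and 861 CPM in WT, highest in replicate 2, and to 274, 376 and 511 CPM in Pparg-/-epi libraries. Of these markers 0 of 13 were altered with all libraries and 3 were higher without WT replicate 2, where 8.97% of all genes were. Their part in these results was not tested.

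The ligands of Ccr4, Ccl22 and Ccl17, flank Cx3cl1 on chromosome 8 (94745684 to 94812036). Ccl22, made mainly by dendritic cells and Langerhans cells, had 98, 403, 65, 115, 101 and 136 counts in WT and 653, 535, 334, 374, 312 and 453 counts in Pparg-/-epi libraries. It was higher by a log2FC of 1.64 ± 0.29 (adjusted p = 0.00297), with WT replicate 2, at 21.4 CPM, as the only WT library above the lowest Pparg-/-epi library, at 20.2 CPM. The next WT library was at 8.56 CPM. Ccl17 was low, ranging between 3 and 17 counts in WT and between 10 and 33 in Pparg-/-epi libraries, and was called higher (log2FC 1.27 ± 0.39, adjusted p = 0.0430). That call was lost without any 1 library other than WT replicate 2. Cx3cl1 (fractalkine), between them on the chromosome, was at 13.9 to 27.3 CPM in WT and 21.0 to 24.3 CPM in Pparg-/-epi libraries and had a log2FC of 0.16.

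Among ligands of lymphoid and epithelial traffic, Ccl20, which attracts Ccr6-bearing cells, was at 1.02, 1.36 and 7.59 CPM in WT and 4.57, 8.4 and 19.5 CPM in Pparg-/-epi libraries. Its log2FC was 1.80 ± 0.53 (adjusted p = 0.0384). WT replicate 2 was inside the Pparg-/-epi range and Pparg-/-epi replicate 12 was far above the others, at 19.5 against 9.45 CPM in the next. Ccl19, which guides Ccr7-bearing dendritic cells and T cells, was at 0.639, 1.76 and 4.46 CPM in WT and 2.91, 4.85 and 6.85 CPM in Pparg-/-epi libraries (log2FC 1.41 ± 0.42, adjusted p = 0.0402). Its row sums 4 exons on chromosome 4 (42754525 to 42756518) and 4 on an unplaced sequence, while transcripts of other genes hold 45.3% of its 75-base stretches, so its level is uncertain because reads that mapped to several positions had been removed.

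Cxcl9 and Cxcl10, interferon-induced ligands of Cxcr3, lie together on chromosome 5 (92321331 to 92348889). Cxcl9 had 70, 173, 164, 81, 91 and 70 counts in WT and 384, 414, 1786, 298, 295 and 130 counts in Pparg-/-epi libraries. It was called higher (log2FC 2.18 ± 0.54, adjusted p = 0.0173), although Pparg-/-epi replicate 12, at 11.2 CPM, was below WT replicate 3, at 17.5 CPM. Cxcl10 was at 0.575, 2.80 and 6.82 CPM in WT and 8.16, 9.85 and 32.3 CPM in Pparg-/-epi libraries (log2FC 2.07 ± 0.52, adjusted p = 0.0186), with no overlap. In both genes Pparg-/-epi replicate 9 was the highest, and leaving it out gave a log2FC of 1.42 for Cxcl9, which stayed called, and 1.64 for Cxcl10, which just missed the adjusted p.

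Cxcl16, a membrane-anchored ligand of Cxcr6, had the smallest standard error of the 16 higher genes. It had 997, 1283, 730, 827, 819 and 1017 counts in WT and 2628, 2167, 3046, 1467, 1748 and 1866 counts in Pparg-/-epi libraries, or 65.7 ± 7.23 CPM and 149 ± 23.1 CPM (SD, n = 6 in each). The log2FC of 1.18 ± 0.11 (adjusted p = 8.44e-05) moved only between 1.09 and 1.24 when any 1 library was left out. Its exons, on chromosome 11 from 70454234 to 70459984, share 363 bases (14.8% of its length) with exons of Zmynd15 on the opposite strand, a gene that rose from 2.55 to 20.2 CPM (log2FC 2.98, adjusted p = 1.04e-05). Whether strand was used in counting is not given in the sources used here, so reads in the shared bases cannot be assigned to either gene with certainty.

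The ligands with the highest WT levels per length went in different directions. Cxcl14, an epithelial chemokine, had 1319, 3291, 1204, 2096, 1531 and 4388 counts in WT and 1617, 1858, 1022, 346, 426 and 330 counts in Pparg-/-epi libraries. It was lower by a log2FC of -1.38 ± 0.38 (adjusted p = 0.0260), and Pparg-/-epi replicate 8 was inside the WT range, replicate 7 was just under it and the other 4 were well below it. Ccl27a, the keratinocyte ligand of Ccr10, was at 85.1, 124 and 175 CPM in WT and 155, 186 and 232 CPM in Pparg-/-epi libraries. Its adjusted p was 0.0267, but its log2FC of 0.59 ± 0.16 was just under the 0.6 required, so it was not called, and it was called without each of 4 libraries in turn. Since 33.3% of its 75-base stretches occur in other genes, among them Ccl27b and several predicted copies, its level is uncertain too.

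Cxcl12, made by fibroblasts and vessels, was at 7.99, 17.5 and 195 CPM in WT and 39.4, 108 and 163 CPM in Pparg-/-epi libraries, and its log2FC was 1.17 ± 0.74 (adjusted p = 0.327). WT replicate 2 was above all Pparg-/-epi libraries and the other WT libraries were below all of them, so that without it Cxcl12 was called higher (log2FC 2.57, adjusted p = 0.00285). Of the 10 vascular markers 1 was higher with all libraries (5.19% of all genes) and 5 without WT replicate 2 (8.97% of all genes). Their sum was 11.6, 36.4 and 160 CPM in WT, highest in replicate 2, and 46.7, 150 and 251 CPM in Pparg-/-epi libraries. Of the 9 fibroblast markers 0 were higher with all libraries and 1 without WT replicate 2, and their median log2FC was 0.01 with all libraries. The part of vessels or fibroblasts in the level of Cxcl12 was not tested. Ccl25, the ligand of Ccr9, was at 2.30, 2.84 and 3.63 CPM in WT and 2.00, 2.35 and 3.07 CPM in Pparg-/-epi libraries (log2FC -0.25 ± 0.19, adjusted p = 0.432). Xcl1, a lymphocyte chemokine, ran from 4.99 to 13.4 CPM in WT and 3.18 to 10.9 CPM in Pparg-/-epi libraries (log2FC -0.63, not called, adjusted p = 0.195), and Pf4 (platelet factor 4) from 0.315 to 8.38 and 3.44 to 7.82 CPM (log2FC 0.35).

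Of the signalling receptors, Cxcr2, which answers to the neutrophil-attracting Cxcl1 and its relatives, had the largest fold change. It had 45, 2, 12, 0, 12 and 4 counts in WT and 267, 179, 125, 167, 100 and 95 counts in Pparg-/-epi libraries, and its log2FC was 3.55 ± 0.73 (adjusted p = 0.00662). No WT library was above 2.88 CPM and no Pparg-/-epi library was below 7.57 CPM. WT replicate 2, high in many of these genes, was among the lowest for Cxcr2, and leaving it out gave 3.29. Of the 13 neutrophil markers 1 was analysed, Csf3r, at 0.632 to 2.55 CPM in WT and 1.55 to 3.63 CPM in Pparg-/-epi libraries (log2FC 1.14, not called, adjusted p = 0.0688).

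Of the myeloid receptors, Ccr1 was called higher and Ccr2 was not called with all libraries. Ccr1 had 2, 17, 0, 1, 0 and 0 counts in WT and 46, 34, 56, 15, 21 and 9 counts in Pparg-/-epi libraries. It was called higher (log2FC 3.21 ± 0.81, adjusted p = 0.0180), and the value rose to 5.24 without WT replicate 2, when the remaining WT libraries had 3 counts among them. A WT count of 0 allows up to 3 counts in that library, so these fold changes are poorly bounded.

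Ccr2, the monocyte receptor of Ccl2, Ccl7 and Ccl12, was at 1.51, 7.37 and 55.1 CPM in WT and 11.4, 27.1 and 45.1 CPM in Pparg-/-epi libraries (log2FC 0.74 ± 0.67, adjusted p = 0.509). The WT range enclosed that of Pparg-/-epi, and without WT replicate 2 it was called higher (log2FC 1.71, adjusted p = 0.0350).

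Ccr7 and Ccr6, receptors of migrating dendritic cells and of lymphocytes drawn to epithelia, were low but called higher. Ccr7 had 6, 15, 8, 2, 5 and 2 counts in WT and 20, 25, 29, 26, 20 and 35 counts in Pparg-/-epi libraries (log2FC 2.07 ± 0.46, adjusted p = 0.00968), with no overlap in CPM. Ccr6 had 18, 27, 1, 2, 2 and 3 counts in WT and 53, 65, 51, 16, 33 and 6 counts in Pparg-/-epi libraries (log2FC 2.13 ± 0.67, adjusted p = 0.0489). Pparg-/-epi replicate 12 was below WT replicates 1 and 2, replicate 10 was below WT replicate 2, and it stayed called without each of only 3 of the 12 libraries. Of the 7 dendritic cell markers 1, Fscn1, was higher (log2FC 1.63, adjusted p = 0.0453), and 2 of the 9 Langerhans cell markers were, Epcam and Mfge8, while Cd207 had a log2FC of 0.00. The other 6 dendritic cell and 7 Langerhans cell markers were not altered, and 5.19% of all genes were called higher. The median log2FC was -0.11 over the dendritic cell list and -0.03 over the Langerhans cell list. The part of these cells in the levels of Ccr7 and Ccr6 was not tested.

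Ccr4, the receptor of Ccl17 and Ccl22 on skin-homing T cells, was lower in Pparg-/-epi skin. It had 655, 311, 557, 747, 779 and 838 counts in WT and 388, 286, 270, 445, 306 and 233 counts in Pparg-/-epi libraries (log2FC -1.03 ± 0.29, adjusted p = 0.0319). WT replicate 2, at 16.5 CPM, was among the Pparg-/-epi libraries, and the other WT libraries were above all of them, and leaving it out gave -1.22 (adjusted p = 0.00152). With RIN, the RNA integrity number, as a covariate Ccr4 was not called (adjusted p = 0.0910). Ccr8, the receptor of Ccl1, lay between 1 and 29 counts in WT and between 5 and 36 in Pparg-/-epi libraries (log2FC 1.06 ± 0.56, adjusted p = 0.232), and was called higher without WT replicate 2 (log2FC 1.73, adjusted p = 0.0289). Of the 12 T cell markers 1 was higher (Cd5, log2FC 2.28) and 1 was lower (Cd3e, log2FC -0.75), and their sum was 186 to 301 CPM in WT and 241 to 310 CPM in Pparg-/-epi libraries.

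Among the CXC receptors of lymphocytes, Cxcr4 and Cxcr6 were called higher and Cxcr3 was not called. Cxcr6 had 48, 99, 49, 79, 62 and 90 counts in WT and 127, 179, 117, 118, 94 and 76 counts in Pparg-/-epi libraries (log2FC 0.75 ± 0.19, adjusted p = 0.0214), with no overlap in CPM. Cxcr4, the receptor of Cxcl12, was at 0.818, 1.70 and 6.10 CPM in WT and 3.74, 6.25 and 9.76 CPM in Pparg-/-epi libraries (log2FC 1.45 ± 0.45, adjusted p = 0.0469), with WT replicate 2 as the only WT library inside the Pparg-/-epi range. Cxcr3, the receptor of Cxcl9 and Cxcl10, ranged between 1 and 17 counts in WT and between 9 and 25 in Pparg-/-epi libraries and was not called (log2FC 0.81 ± 0.41, adjusted p = 0.214). Of the other receptors, Xcr1, found on cross-presenting dendritic cells, was at 0.237, 1.16 and 3.93 CPM in WT and 1.25, 3.58 and 5.09 CPM in Pparg-/-epi libraries (log2FC 1.13 ± 0.59, adjusted p = 0.223), and was called higher without WT replicate 2 (log2FC 1.67, adjusted p = 0.0468). Cx3cr1, the fractalkine receptor, ran from 3.02 to 6.29 and 3.66 to 6.43 CPM (log2FC 0.35), and Ccr9, the receptor of Ccl25, from 5.57 to 15.9 and 4.91 to 12.8 CPM (log2FC -0.20).

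Of the atypical receptors, 1 of 5 was called lower and the other 4 were not called. Ackr4, which clears Ccl19, Ccl21 and Ccl25 and is found on keratinocytes, had 1911, 1863, 1400, 2143, 2026 and 2407 counts in WT and 1129, 1189, 1243, 1064, 1148 and 1060 counts in Pparg-/-epi libraries. It was lower by a log2FC of -0.76 ± 0.15 (adjusted p = 0.00512), and it stayed called without any 1 of the 12 libraries. With RIN as a covariate it was not called, since its log2FC was then -0.595 (adjusted p = 0.000758). The groups overlapped only between WT replicate 2, at 98.9 CPM, and Pparg-/-epi replicate 11, at 104 CPM. Ackr3, which scavenges Cxcl12, was at 27.3 to 34.2 CPM in WT and 21.4 to 28.9 CPM in Pparg-/-epi libraries (log2FC -0.30). Ackr2, a scavenger of inflammatory CC chemokines, was at 8.74, 11.6 and 16.9 CPM in WT and 5.32, 8.83 and 14.6 CPM in Pparg-/-epi libraries (log2FC -0.38 ± 0.25, adjusted p = 0.343). Both ranges overlapped and neither gene was called. Ackr1, carried by venules, was at 2.27, 5.55 and 16.7 CPM in WT and 4.34, 6.72 and 8.23 CPM in Pparg-/-epi libraries (log2FC -0.16 ± 0.40, adjusted p = 0.836). Ccrl2, which binds chemerin and has been listed as a partner of Ccl19, ranged between 9 and 26 counts in WT and between 8 and 28 in Pparg-/-epi libraries (log2FC 0.29 ± 0.32, adjusted p = 0.606).

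Ligands were then set beside their signalling receptors. Of the 19 pairs with both partners analysed, 4 had both partners higher: Ccl7 with Ccr1, Ccl19 with Ccr7, Ccl20 with Ccr6 and Cxcl16 with Cxcr6. In 2 the ligand was higher and the receptor lower, and both were pairs of Ccr4, with Ccl17 and with Ccl22. In 5 the ligand alone was higher (Ccl1 with Ccr8, Ccl2 and Ccl7 with Ccr2, and Cxcl9 and Cxcl10 with Cxcr3), in 3 the receptor alone (Ccl6 and Ccl9 with Ccr1, and Cxcl12 with Cxcr4), and in 5 neither was altered. These counts depended on WT replicate 2. Without it 10 pairs had both partners higher, the 6 added being Ccl1 with Ccr8, Ccl2, Ccl7 and Ccl12 with Ccr2, Ccl9 with Ccr1 and Cxcl12 with Cxcr4, and the ligand alone was higher in 2. With breeding numbers as blocks 1 pair had both partners higher, Cxcl16 with Cxcr6, and in 0 was the receptor lower. The pairs share genes, so they are not independent. With all libraries 10 of the 22 ligands and 6 of the 14 signalling receptors were higher. Pairs with both partners higher can thus occur with or without a link between the partners, and such a link was not tested. Of the 14 pairs with an atypical receptor, 1 had a higher ligand and a lower receptor, Ccl19 with Ackr4. None could have a higher receptor, since 0 of the 5 atypical receptors were called higher. For Cxcr2 no ligand was analysed here, for Ccl27a no receptor, and for Ccl11 no signalling receptor. Cxcl14 and Pf4 were in none of the listed pairs.

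**Figure D3:**
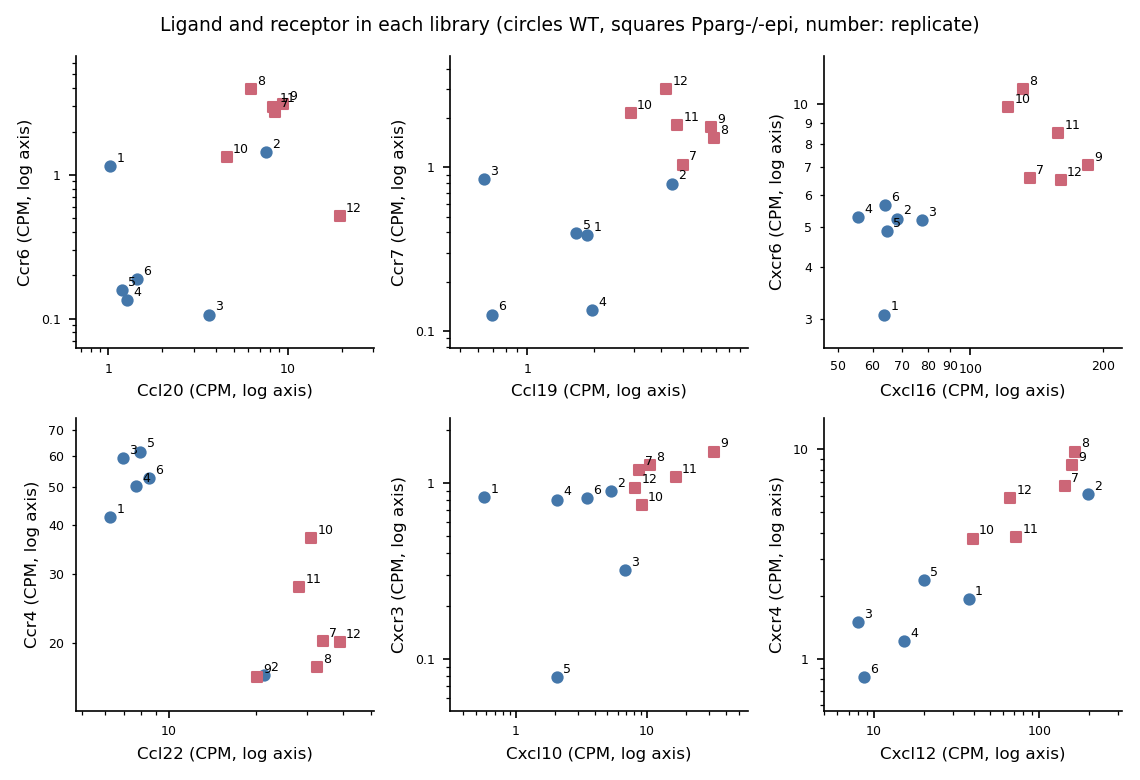
CPM of a ligand (x axis) and its receptor (y axis), both on log axes, in each of the 12 libraries (circles WT, squares Pparg-/-epi, numbered by replicate), for 6 pairs. The groups separate along both axes for Cxcl16 and Cxcr6, WT replicate 2 lies among the Pparg-/-epi libraries for Ccl22 and Ccr4, and for Cxcl12 it lies to the right of all of them.

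Per length of transcript, the highest WT levels were those of Cxcl14, at 84.4 ± 36.4 RPKM (CPM per kilobase of gene length, SD, n = 6), Ccl27a, at 84.3 ± 21.0 RPKM, and Ackr4, at 65.3 ± 10.8 RPKM, which were within each other's spread. In Pparg-/-epi skin Ccl27a was first at 127 ± 20.6 RPKM, followed by Cxcl16 at 60.8 ± 9.42 RPKM and Ackr4 at 38.7 ± 7.6 RPKM, and Cxcl14 had fallen behind Ccl8, at 32.3 ± 18.6 RPKM. Ccl8, in 4th place in both groups, had an SD above its mean in WT (30.6 ± 44.8 RPKM). The receptors were mostly far lower: Ccr4 was the highest in both groups, at 16.9 ± 5.93 RPKM in WT and 8.29 ± 2.83 RPKM in Pparg-/-epi skin, and Ccr1 the lowest in WT, at 0.06 ± 0.13 RPKM. Cxcr2 moved from 0.30 ± 0.36 to 3.47 ± 0.92 RPKM and Ccl1 from 0.86 ± 0.79 to 8.98 ± 3.20 RPKM.

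**Figure D4:**
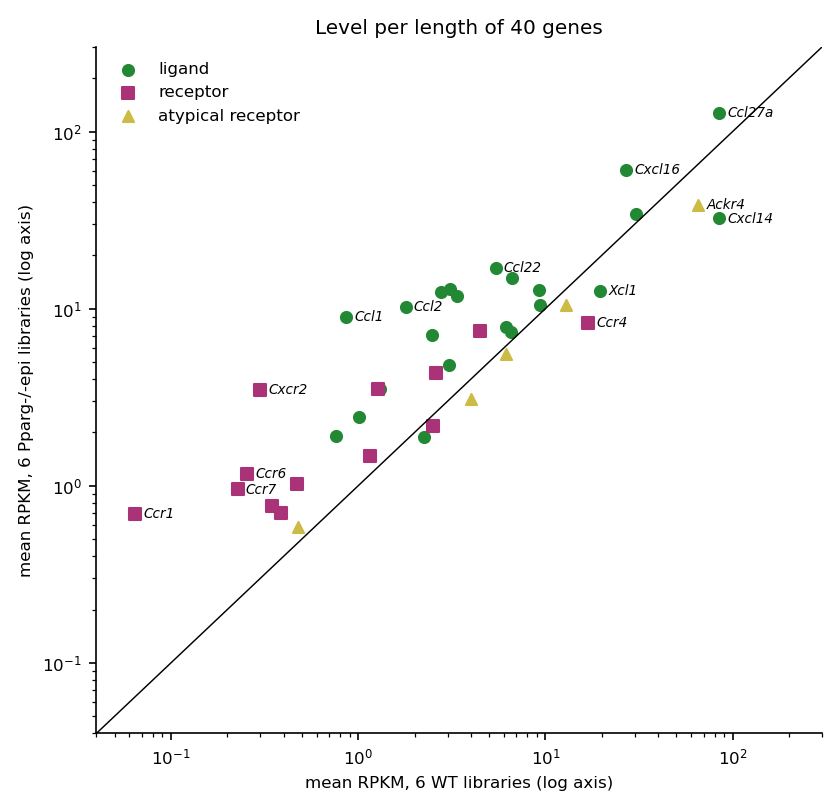
Mean level per length (RPKM, log axes) of 40 of the 41 genes in 6 WT (x axis) and 6 Pparg-/-epi libraries (y axis), with the line of equal level and marks by role. Low genes such as Cxcr2, Ccr1 and Ccl1 lie farthest above the line, and Cxcl14, Ackr4, Ccr4 and Xcl1 lie below it.

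Many of the called genes had low counts in at least 1 library. Of the 41 genes, 17 had under 10 counts in at least 1 library, and 10 of these were higher and 0 lower. The other 24 had 10 counts or more in every library, and of them 6 were higher (Ccl20, Ccl22, Cxcl9, Cxcl16, Cxcr4 and Cxcr6) and 3 lower. The mean WT count was under 10 in 8 genes, 5 of them called higher. The authors' filter, above 0.5 CPM in 6 libraries or more, can be met by the libraries of 1 genotype alone. A gene near 0 in WT was therefore analysed only if it passed in Pparg-/-epi libraries. Low WT counts and a call of higher thus go together in part through the filter, and no share of low-count genes over all genes is given. Of the 19 altered genes, 9 stayed called without any 1 library: Ccl1, Ccl2, Ccl22, Cxcl9, Cxcl16, Ccr1, Ccr7, Cxcr2 and Ackr4. Of these 9, Ccr1 (adjusted p = 0.0519) and Cxcl9 (adjusted p = 0.0811) were not called with breeding numbers as blocks, and Ackr4 was not called with RIN as a covariate. Another 7 stayed called in 4 or fewer of the 12 such fits (Ccl7, Ccl17, Ccl19, Ccl20, Ccr4, Ccr6 and Cxcr4), and 6 of these, all but Ccr4, were not called when total counts replaced TMM, with adjusted p between 0.0506 and 0.0694.

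**Figure D5:**
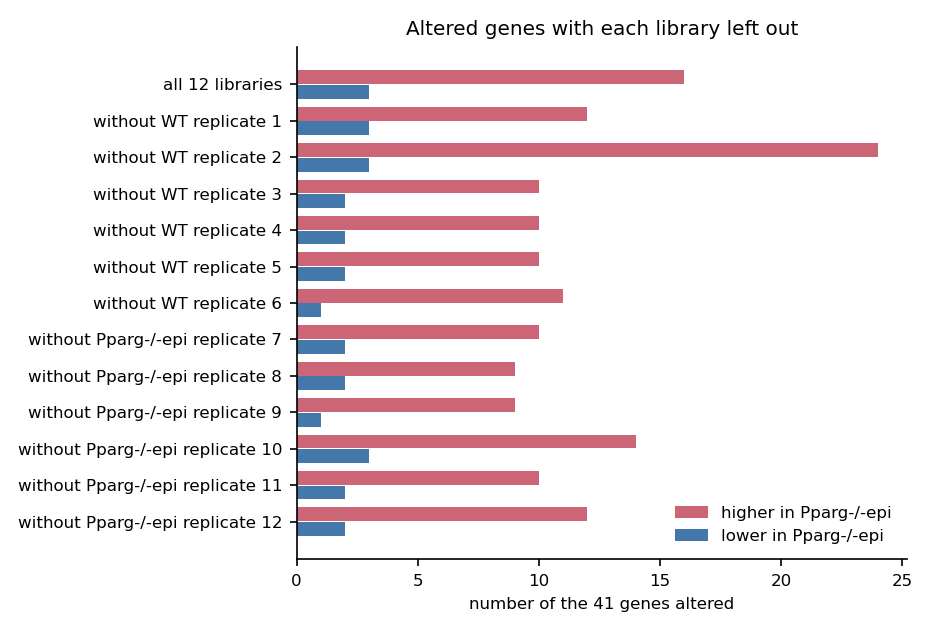
Number of the 41 genes called higher or lower in Pparg-/-epi with all 12 libraries and with each library left out in turn (bars from 0). The number higher is 24 without WT replicate 2 and between 9 and 14 without any other library.

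The difference between genotypes was tested for a dependence on sex, and 0 of the 41 genes passed (edgeR's quasi-likelihood test of the interaction, with 0 by the likelihood ratio test). At an unadjusted p under 0.05 there were 2, where 5.10% of all genes had such a p. For Cxcr2 the log2FC was 6.33 in female and 2.66 in male mice (adjusted p of the difference = 0.895). The 3 female WT libraries had 2, 0 and 4 counts of it and the 3 male WT libraries 45, 12 and 12 counts. For Ccl22 it was 1.19 in female and 2.29 in male mice (adjusted p of the difference = 0.895).

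Genes that act after or beside the receptors were mostly not altered, which was so for genes at large. Of all genes, 5.19% were called higher and 5.08% lower, so few calls are usual for lists of this size. Of 54 genes of chemokine receptor signalling, 1 was higher, Rac2 (a GTPase of leukocytes, log2FC 1.15, adjusted p = 0.0377), and 2 were lower, Adrbk2 (a kinase that desensitises receptors, log2FC -0.97, adjusted p = 0.00867) and Rgs2 (a G protein brake, log2FC -0.88, adjusted p = 0.0319). The median of the list was 0.11. Of 20 analysed chemoattractants outside the families, chemokine-binding partners and processing enzymes, 1 was altered: Mmp9, a protease that trims chemokines, was lower (log2FC -1.0, adjusted p = 0.00390). The sheddases Adam10 and Adam17, which release Cxcl16 and Cx3cl1 from the membrane, had log2FC values of 0.14 and -0.23, and neither was called.

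Among the markers of cells that carry these receptors, those of mast cells separated the genotypes. Of 7 listed, 6 were analysed, and 6 of 6 were higher, where 5.19% of all genes were. Their sum was 20.02 to 95.3 CPM in WT and 136 to 246 CPM in Pparg-/-epi libraries. Kit, the stem cell factor receptor, had a log2FC of 2.30 (adjusted p = 0.00106) and Cpa3, a mast cell protease, of 1.68 (adjusted p = 0.00512). Of 5 B cell markers 0 were analysed. The part of mast cells, or of any other cell type, in the chemokine values was not tested.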

How the data were processed

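The authors aligned paired reads with STAR 2.5.2b to mm10, removed reads of low quality or with several positions, and counted reads per gene with featureCounts of Subread 1.5.1, whose strand setting is not given in the sources used here. The deposited counts are raw, for 12 libraries and 14533 genes, after 2800 blank rows were dropped, all above 0.5 CPM in 6 libraries or more (the authors' filter). Columns were assigned to mice through the names in the labels for 10 libraries. The labels of Pparg-/-epi replicates 11 and 12 hold no such name, and their columns were matched through the number in the title, the study's library sheet and the series' design text. Counts were scaled by TMM and compared with edgeR 4.0.16's quasi-likelihood test (R 4.3.3), fitting genotype alone, and p-values were adjusted by Benjamini-Hochberg across the table; the code was tested on simulated counts. The standard error is the log2 fold change divided by the root of F. Alternatives were edgeR's likelihood ratio test and robust fit, DESeq2 1.42.0, limma 3.58.1 (voom with sample quality weights), other scalings, a filter at a mean of 2 CPM, covariates, each sex, each library left out, and 2 sets of libraries chosen after seeing the data. RPKM is CPM per kilobase of the deposited gene length. Stretches of 75 bases and exons were compared with GENCODE vM21. The 41 genes enter the counts of called genes, but 1 of them is not reported here on its own. The other 40 are named, with full values for altered genes, for those altered without 1 library, and for their ligands or receptors. The symbol rule uses no values, but these genes were proposed, and the lists chosen, with earlier results of these data known. Figures were drawn with matplotlib.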

Additional observations from a re-analysis of the deposited data

Results flagged for a closer look

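In each group of 6, the gap between the most extreme library and the next was divided by the group's range. Of 80 such groups (40 genes in 2 genotypes), 17 held a library past the 95% limit of Dixon's test. That limit flags about 1 in 20 groups when values are normally distributed and groups are independent. CPM are skewed and some rest on few counts, and the groups share the same libraries. The 17 can therefore not be set against that rate, and no share over all genes is given. Of the 17, 11 were a high WT replicate 2: Ccl11 (0.903, 43.5 CPM against 5.18 CPM in the next WT library), Ccr1 (0.858), Ccl22 (0.848), Cxcl12 (0.844, 195 against 37.3 CPM), Ccl9 (0.747), Ccl8 (0.741, 61.0 against 17.0 CPM), Ccr8 (0.732), Ccl2 (0.712), Cxcr4 (0.706), Ccr2 (0.661) and Ccl19 (0.657).

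Pparg-/-epi replicate 9 was high for Cxcl9 (0.840, 108 against 26.7 CPM) and Cxcl10 (0.648, 32.3 against 16.6 CPM). The remaining 4 were single genes: Ccl20 high in Pparg-/-epi replicate 12 (0.673), Pf4 high in Pparg-/-epi replicate 8 (0.680), Cxcl9 high in WT replicate 3 (0.635) and Cxcr6 low in WT replicate 1 (0.705, 3.07 against 4.90 CPM). The cause was not tested.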

How the results depend on the processing

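Over all genes 1493 were altered. The count was 2603 with sample quality weights, 651 in female and 18 in male mice alone, 2968 without WT replicates 1 and 2 together (chosen after seeing the data), and 1116 to 2249 with 1 library left out, highest without WT replicate 2. Of the chemokine genes, 16 were higher and 3 lower. With breeding numbers in 2 blocks 10 were higher: Ccl27a was gained, and Ccl7, Ccl17, Ccl19, Cxcl9, Ccr1, Ccr6 and Cxcr4 were not called, nor was Ccr4 among the lower genes. Other counts of higher and lower genes were, in female mice 2 higher and 0 lower, in male mice 1 higher and 0 lower, without WT replicates 1 and 2 together 26 higher, with RIN as a covariate 1 lower (Cxcl14), and with 1 library left out 9 to 24 higher and 1 to 3 lower. Other tests, scalings and covariates gave 11 to 24 higher, and leaving out WT replicate 2 and Pparg-/-epi replicate 9 together, also chosen after seeing the data, gave 19. Single-sex fits have fewer samples.

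Only log2FC values of genes not called with all libraries changed sign. Ackr1 (-0.16) was 0.22 with sample quality weights, 0.080 with age, 0.0017 in female mice, 0.57 without WT replicates 1 and 2, and -0.34 to 0.27 with 1 library left out. Ccl8 (0.15) was -0.24 with breeding blocks, -0.15 in female mice and -0.086 to 1.40 with 1 library left out. Ccl11 was -0.25 with breeding blocks, Ccr9 0.029 with RIN and 0.20 in male mice, Ccrl2 -0.042 in female mice and Pf4 -0.11 in male mice. The cause was not tested. No paired analysis was possible because the genotypes share no replicate numbers, and only 1 breeding number holds mice of both, 1 of each, so the blocks above join several breeding numbers and do not pair mice. Low counts, under 10 in at least 1 library for 17 of the 41 genes, limit the precision of the fold changes.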
